A study of Mus musculus with 8 samples.

Results

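The 41 genes described here encode the chaperones of the endoplasmic reticulum (ER), the sensors and transcription factors of the unfolded protein response, and the machinery that moves proteins into the ER or out of it for degradation. They were taken by gene symbol from a fixed list, and each of the 41 was found among the 52143 genes with deposited values. The question they address is whether the higher level of Sdf2l1 in Siglec-XII colon was shared by other ER chaperones and by the Xbp1, Atf4 and Atf6 arms of the response.

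RNA came from the distal colon of mice at baseline, in 4 Control samples (Villin1-Cre-ERT) and 4 Siglec-XII samples (SIGLEC12-Villin1-Cre-ERT), numbered 1 to 4 within each group. Siglec-XII is a human cell surface receptor that mice lack, and its coding sequence was inserted at the ROSA26 locus behind an EGFP stop cassette between loxP sites, with 1 floxed allele per mouse. Both groups carried the Cre-ERT recombinase, which is driven by the Villin1 promoter and so confined to intestinal epithelium, and both received tamoxifen (10 mg/mL stock, 100 µL injected) on 5 consecutive days from 8 weeks of age. Colons were taken 7 days after the last injection, 12 days after the first, and all mice were female. The controls were littermates without the SIGLEC12 allele, so EGFP and the ROSA26 insertion differed between the groups together with Siglec-XII. The strain is not given in the sources used here. The labels list 4 samples per group, the design text speaks of 3 mice per condition, and the Methods describe 3 technical libraries per sample. The spread between samples may therefore be partly technical.

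Proteins that enter the secretory pathway are folded in the ER by Hspa5 (BiP), Hsp90b1 (GRP94), the lectin chaperones and the disulfide isomerases. When unfolded proteins accumulate, Ire1 splices the Xbp1 mRNA, Perk slows translation and favours that of Atf4, and Atf6 is cut from the membrane; together these arms raise the transcription of chaperone genes. The colon relies on this system in its goblet cells, which secrete large amounts of disulfide-linked mucin, and Ern2 (Ire1 beta) is a form of Ire1 restricted to such mucosal epithelium.

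Values are log2(TPM + 1), with TPM the abundance of a transcript corrected for length and scaled to the library, and differences are Siglec-XII minus Control on that scale. They were tested with limma over the 13164 genes that reached a TPM of 1 in 4 or more samples, and P was adjusted by the Benjamini-Hochberg method over all of these genes. Of the 41 genes, 38 entered this test; Trib3, Chac1 and Derl3 were too low.

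The epithelial markers were abundant in all samples, with summed TPM from 8930 to 12800 in Control and from 8520 to 12200 in Siglec-XII. Siglec-XII samples 3 and 4 stood apart from the other 6 on the first principal component, which held 40.3% of the variance (36.2 and 50.2 against −29 to −4.8). The median gene also lay lower in these samples, by 0.227 and 0.372 relative to the mean of the 8 samples, so most genes had a difference below 0. Over all genes tested the median difference was −0.15 as deposited and 0.06 after each sample was centred on its median gene. Counts of genes are therefore given in both versions, and values of single genes as deposited unless stated.

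Promoter elements are shown first because they mark which of these genes carry the promoter element through which Atf6 and Xbp1 are known to act. The ER stress response element (ERSE) was searched as CCAAT, 9 bases of any kind and CCACG, on both strands of the 300 bases from 250 before to 50 after each start in RefSeq (GRCm38.p6). It was found in 9 of the 34 genes that have a promoter in that table (26.5%), against 0.137% of all 27025 genes. The matched elements follow, read along the strand that holds the match, with the fixed bases in capitals:
Hspa5: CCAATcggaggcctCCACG
Hsp90b1, copy far from the start: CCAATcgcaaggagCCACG
Hsp90b1, copy near the start: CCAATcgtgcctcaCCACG
Calr: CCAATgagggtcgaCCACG
Canx: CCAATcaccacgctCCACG
Pdia6: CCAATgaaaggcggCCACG
Dnajc3: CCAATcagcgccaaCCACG
Creld2: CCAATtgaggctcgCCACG
Syvn1: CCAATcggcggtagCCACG
Derl3: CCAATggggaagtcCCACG

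The Hspa5 element began 65 bases before the RefSeq start, and the others began between 212 and 44 bases before theirs. GENCODE places the starts of Hspa5 and Hsp90b1 further upstream than RefSeq does, so the Hspa5 element lies after the GENCODE start given below, while both Hsp90b1 copies lie before theirs. A related element, ERSE-II (ATTGG, 1 base of any kind and CCACG), was found in Dnajb11, after the start, and in Herpud1, before it, which is 5.88% of the 34 against 0.0444% of all genes:
Dnajb11: ATTGGcCCACG
Herpud1: ATTGGgCCACG

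The core of the unfolded protein response element, TGACGTGG, was in none of the 34 promoters and in 0.714% of all genes. The amino acid response element bound by Atf4 was searched in 1 form only, TGATGCAAT. That form was in none of the 34 and in 0.222% of all genes. The promoter of Sdf2l1 (chr16:17132384-17132633, GRCm38, minus strand), shown because this gene had the largest difference of the 38, held none of these letters in its window:
Sdf2l1: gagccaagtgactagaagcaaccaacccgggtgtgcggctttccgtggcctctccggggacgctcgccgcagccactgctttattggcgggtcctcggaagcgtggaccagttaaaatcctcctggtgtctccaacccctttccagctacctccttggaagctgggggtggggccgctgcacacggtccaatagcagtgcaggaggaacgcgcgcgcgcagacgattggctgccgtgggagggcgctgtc

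The promoter of Creld2 (chr15:88819396-88819645, plus strand) is shown for comparison, with its element in capitals; the match lies on the opposite strand, so it reads here as the reverse complement of the line above:
Creld2: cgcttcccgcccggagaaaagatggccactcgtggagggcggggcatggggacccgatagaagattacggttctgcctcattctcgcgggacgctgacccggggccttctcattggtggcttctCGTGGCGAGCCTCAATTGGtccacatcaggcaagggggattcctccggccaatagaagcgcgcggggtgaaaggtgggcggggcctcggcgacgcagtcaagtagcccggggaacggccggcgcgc

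A match or its absence describes these letters only. Manf, Derl1, Ern2, Hyou1, Sil1, Atf6 and Hspa13 had no promoter among those available and were not searched.

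The ER genes lay toward the higher end of all genes in Siglec-XII, and Sdf2l1, Hspa5 and Manf were those with a difference past an unadjusted P of 0.05, called the unadjusted limit here. As deposited, 24 of the 38 had a difference above 0, against 21.9% of all genes tested, and their median difference was 0.05 with a range from −0.32 (Ern1) to 0.61 (Sdf2l1). No gene of the 38 passed an adjusted P of 0.05, which 0.038% of all genes (5 of 13164) did. At an unadjusted P of 0.05, 3 were higher (Sdf2l1, Hspa5 and Manf) against 1.19% of all genes, and 0 were lower against 7.67%. In 4 genes (these and Sec61b) every Siglec-XII sample lay above every Control sample, against 1.05% of all genes, and in 0 genes below, against 4.06%.

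Sdf2l1 was known to be higher before the list was drawn up, so it counts as a description only. Without it, 23 of 37 genes had a difference above 0, 2 passed the unadjusted limit, 3 did not overlap and the median was 0.03.

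After median centring, 37 of the 38 genes had a difference above 0, against 61.5% of all genes, with a median of 0.26. At an unadjusted P of 0.05, 21 were higher against 8.64% of all genes, 0 were lower against 2.16%, and 14 did not overlap against 5.74%. Again none passed the adjusted limit. Without Sdf2l1, 36 of 37 genes had a difference above 0, 20 were higher at the unadjusted limit and 13 did not overlap. The smallest adjusted P of these 37 in limma was 0.335. The exception in direction was Ern1, at −0.10.

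**Figure D1:**
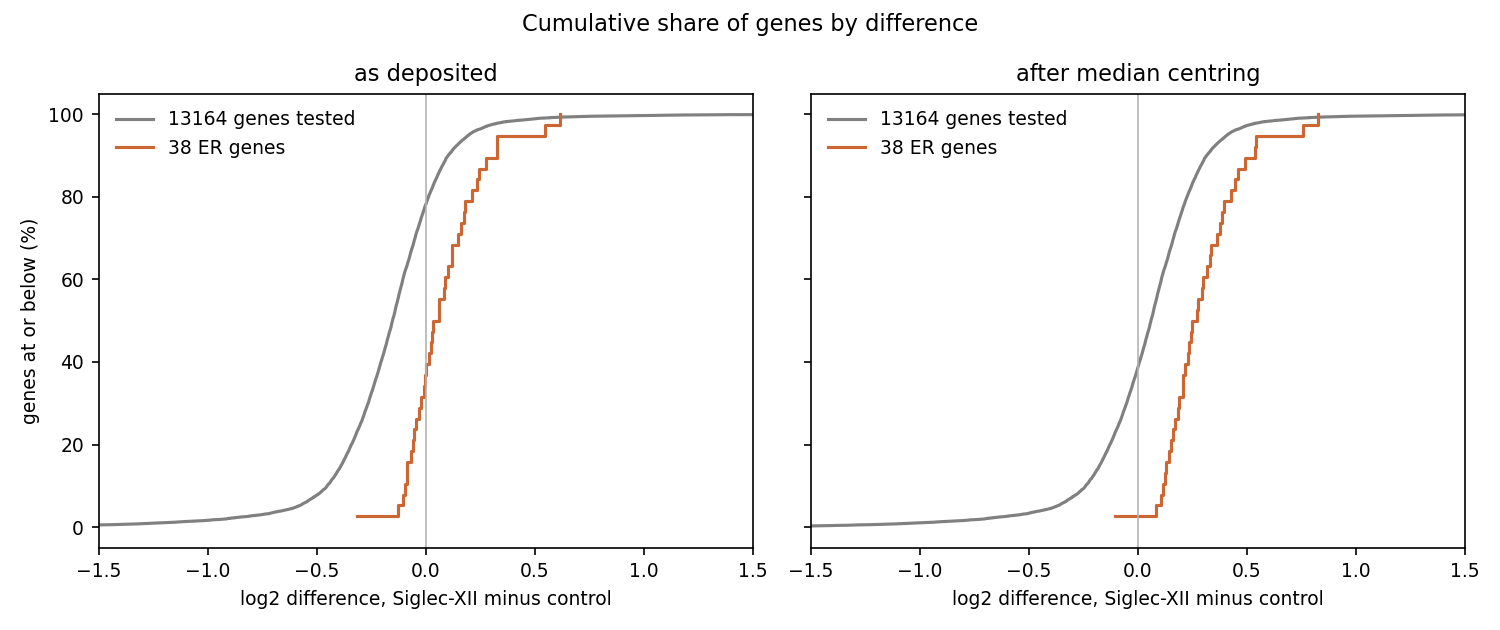
Cumulative share of genes (vertical axis, percent) by log2 difference of log2(TPM + 1), Siglec-XII minus Control (horizontal axis), for the 13164 genes tested (grey) and the 38 ER genes (orange), as deposited (left) and after median centring (right). The orange line lies to the right of the grey one in both panels, with medians of 0.05 against −0.15 as deposited and 0.26 against 0.06 after centring.

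Sdf2l1 (ENSMUSG00000022769, chr16:17130138-17132383, minus strand) encodes a small ER protein that works with the J proteins beside Hspa5. It measured 5.04, 5.15, 5.26 and 5.09 in Control samples 1 to 4 and 5.61, 5.87, 5.90 and 5.62 in Siglec-XII samples 1 to 4. The lowest Siglec-XII sample lay above the highest Control sample, and the 2 samples that stood apart did not lie low in this gene, with sample 3 the highest of all 8 at 5.90. The means were 5.13 ± 0.09 and 5.75 ± 0.16 (SD, n = 4 each), a difference of 0.61 (SE 0.106; 95% confidence interval 0.37 to 0.85) or 1.53-fold on the TPM + 1 scale. This was the 97th highest of the 13164 differences. It stayed between 0.56 and 0.83 in the 17 alternative fits. Because the gene was singled out for this rise in the same samples, its interval, rank and stability are a description only.

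Hspa5 (ENSMUSG00000026864, chr2:34771970-34777547, plus strand), the HSP70 chaperone that also holds the 3 stress sensors inactive, measured 7.75, 7.61, 7.69 and 7.46 in Control samples 1 to 4. It measured 8.21, 8.61, 8.04 and 7.82 in Siglec-XII samples 1 to 4. The groups did not overlap, with sample 2 far above the others and sample 4 just above the highest Control sample. The difference was 0.55 (SE 0.159; 95% confidence interval 0.19 to 0.91; limma adjusted P = 0.515), or 1.46-fold on the TPM + 1 scale. It was above 0 and past the unadjusted limit in all 17 alternative fits, between 0.40 and 0.93. With array weights, which give less weight to samples that deviate from the fit, Hspa5 passed the adjusted limit (difference 0.93, limma adjusted P = 0.0335). In that fit 0.137% of all genes passed, among them Sdf2l1, which counts as a description only. The 0.93 exceeds the 0.78 that Siglec-XII samples 1 and 2 gave without weights, so it leaned on sample 2, the highest at 8.61.

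The other genes of this class were less separate. Hsp90b1, the HSP90 of the ER, differed by 0.28 (95% confidence interval −0.18 to 0.74), with Siglec-XII samples 1 and 2 at 7.85 and 8.03, above the Control range of 7.06 to 7.54, and samples 3 and 4 at 7.50 and 7.10, within it. Of the 31-base windows of its transcripts, 12.3% also occur in other genes. Hyou1, which exchanges the nucleotide of Hspa5, differed by 0.00 (−0.45 to 0.45) and Hspa13, a microsomal HSP70 relative, by 0.03 (−0.26 to 0.33). In Hyou1, samples 1 and 2 lay above all controls (4.72 and 4.95 against 4.36 to 4.54), and samples 3 and 4 lay below them (4.28 and 3.98). All 5 genes of the class had a difference of 0.00 or more, and Hspa5 was the 1 besides Sdf2l1 that passed the unadjusted limit, which 1.19% of all genes did in this direction. After median centring Hspa5, Hsp90b1 and Hspa13 passed it besides Sdf2l1, against 8.64% of all genes.

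**Figure D2:**
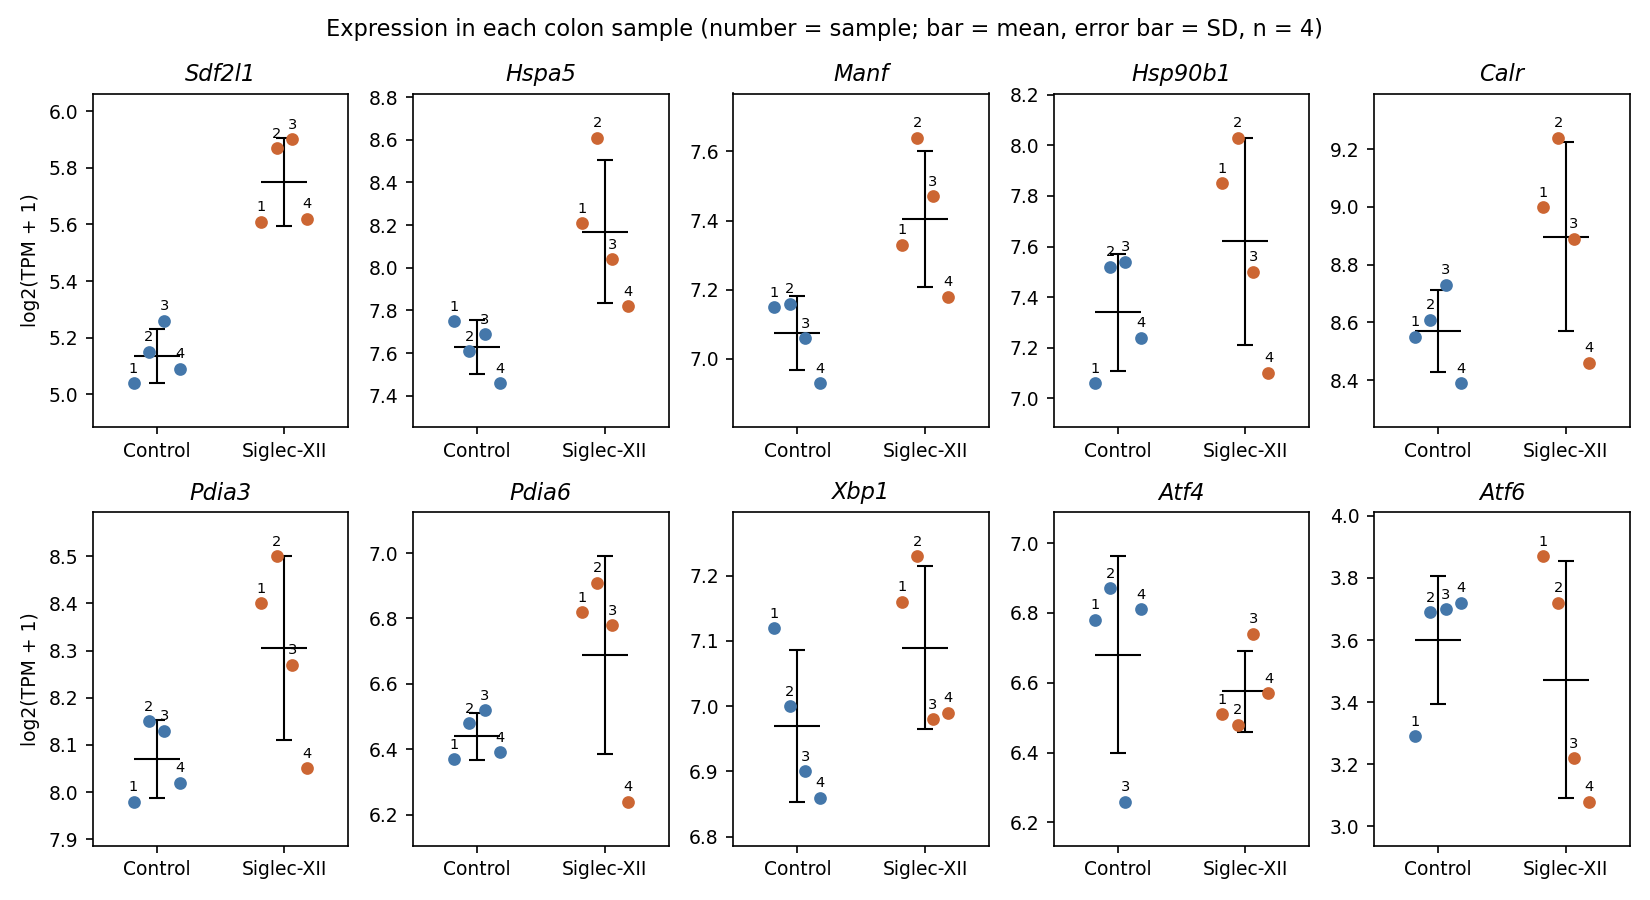
Expression of 10 ER genes in each colon sample, as log2(TPM + 1); points are samples with their number, horizontal bars group means and error bars SD (n = 4), and each panel has its own axis range. Sdf2l1 (known to be higher beforehand), Hspa5 and Manf show no overlap between the groups. Hsp90b1, Calr, Pdia3 and Pdia6 do because of Siglec-XII sample 4, joined in Hsp90b1 by sample 3.

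The J proteins bring clients to Hspa5 and stimulate its ATPase, and Sil1 releases its nucleotide. As deposited, 0 of these 5 genes passed the unadjusted limit (1.19% of all genes were higher at it), and 4 of 5 did after median centring (Dnajb11, Dnajc3, Dnajc10 and Sil1), against 8.64% of all genes. The deposited differences ran from about 0 (Dnajc10) to 0.16 (Dnajb9, 95% confidence interval −0.16 to 0.49). Dnajb9 measured 4.65, 4.65, 4.37 and 4.96 in Control samples 1 to 4 and 4.69, 4.93, 4.67 and 5.00 in Siglec-XII samples 1 to 4. The groups overlapped, and the highest Control value lay between the 2 highest Siglec-XII values. Dnajc3 differed by 0.15 (−0.17 to 0.47), and Dnajb11 and Sil1 by 0.06 each (−0.22 to 0.34 in both).

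The lectin chaperones bind the trimmed glycans of new glycoproteins. Calr, the soluble one, measured 8.55, 8.61, 8.73 and 8.39 in Control and 9.0, 9.24, 8.89 and 8.46 in Siglec-XII. Siglec-XII samples 1 to 3 lay above all controls, and sample 4 lay among them. The difference was 0.33 (SE 0.159; 95% confidence interval −0.03 to 0.68; limma adjusted P = 0.515). Canx, the membrane-bound one, differed by 0.02 (−0.39 to 0.44). After median centring Calr passed the unadjusted limit at 0.54 and Canx did not at 0.24, against 8.64% of all genes higher at it.

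Among the disulfide isomerases and their oxidase, 5 of 6 had a difference above 0 as deposited, against 21.9% of all genes, and 0 passed the unadjusted limit, against 1.19% higher. After median centring 6 of 6 were above 0, against 61.5% of all genes, and 4 (P4hb, Pdia3, Pdia4 and Pdia6) passed the limit, against 8.64%. Pdia6, which also attenuates Ire1 signalling, measured 6.37, 6.48, 6.52 and 6.39 in Control and 6.82, 6.91, 6.78 and 6.24 in Siglec-XII. Samples 1 to 3 lay above all controls and sample 4 below all of them, so that the difference of 0.25 had an interval from −0.08 to 0.57. Pdia3, the partner of the lectin chaperones, differed by 0.24 (−0.01 to 0.48), with sample 4 at 8.05 inside the Control range of 7.98 to 8.15. P4hb, the founding protein disulfide isomerase, differed by 0.10 (−0.08 to 0.29), Pdia4 by 0.08 (−0.26 to 0.43), the oxidase Ero1l by 0.03 (−0.28 to 0.34) and Pdia5 by −0.03 (−0.38 to 0.33).

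Manf and Creld2 encode small ER stress proteins that can be secreted. Manf measured 7.15, 7.16, 7.06 and 6.93 in Control and 7.33, 7.64, 7.47 and 7.18 in Siglec-XII, so that the groups were apart by the gap between 7.16 and 7.18. Its difference was 0.33 (SE 0.112; 95% confidence interval 0.07 to 0.58; limma adjusted P = 0.515). Without Control sample 4 it missed the unadjusted limit. Of the 31-base windows of its transcripts, 7.25% also occur in other genes. Creld2 differed by 0.18 (−0.06 to 0.42). After median centring both passed the unadjusted limit, at 0.54 and 0.39, against 8.64% of all genes higher at it.

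As deposited, none of the 8 genes tested in the 3 arms of the response passed the unadjusted limit or had groups that did not overlap. After median centring Xbp1 (0.33) and Ddit3 (0.43) passed that limit, against 8.64% of all genes, with groups that still overlapped. Without Siglec-XII samples 3 and 4 the groups did not overlap in Xbp1, Atf6, Atf6b and Eif2ak3, against 6.24% of all genes, and none of the 8 passed the unadjusted limit. Xbp1, the factor downstream of Ire1, measured 7.12, 7.00, 6.90 and 6.86 in Control and 7.16, 7.23, 6.98 and 6.99 in Siglec-XII. Samples 1 and 2 lay just above the controls and samples 3 and 4 among them. The difference was 0.12 (SE 0.0962; 95% confidence interval −0.10 to 0.34; limma adjusted P = 0.575). These values count all Xbp1 transcripts of the gene together, spliced or not.

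Ern1, the widely expressed Ire1, measured 2.82, 3.39, 3.33 and 3.33 in Control and 3.31, 3.25, 2.54 and 2.49 in Siglec-XII. Its difference of −0.32 (−0.84 to 0.21) rested on Siglec-XII samples 3 and 4, without which it was 0.07. Ern2, the mucosal form, measured 4.09, 4.63, 4.77 and 4.29 in Control and 4.76, 4.64, 4.17 and 4.12 in Siglec-XII. The groups overlapped over almost their whole range, and the difference was −0.02 (−0.48 to 0.43).

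In the Perk arm, the kinase gene Eif2ak3 measured 3.30, 3.59, 3.84 and 3.77 in Control and 3.94, 3.85, 3.45 and 3.01 in Siglec-XII, a difference of −0.06 (−0.56 to 0.44). Atf4, its translationally controlled factor, measured 6.78, 6.87, 6.26 and 6.81 in Control and 6.51, 6.48, 6.74 and 6.57 in Siglec-XII. Controls 1, 2 and 4 lay above all Siglec-XII samples, and Control sample 3 lay below them. The difference was −0.11 (SE 0.141; 95% confidence interval −0.43 to 0.21), and without Control sample 3 it was −0.24 and past the unadjusted limit.

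Ddit3 (CHOP), a target of Atf4 linked to cell death, measured 3.65, 4.16, 3.83 and 4.31 in Control and 4.24, 4.10, 4.11 and 4.36 in Siglec-XII, a difference of 0.21 (−0.15 to 0.57). The Control samples spread more widely and reached nearly as high. Chac1, a glutathione-degrading target of Atf4, measured 3.95, 0.99, 0.65 and 2.16 in Control and 0.77, 1.58, 0.78 and 0.69 in Siglec-XII, so that Controls 1 and 4 were the highest. Trib3, a pseudokinase induced by Ddit3, lay between 0.32 and 0.97 in all samples.

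In the Atf6 arm, Atf6 measured 3.29, 3.69, 3.70 and 3.72 in Control and 3.87, 3.72, 3.22 and 3.08 in Siglec-XII, a difference of −0.13 (−0.58 to 0.33). Its relative Atf6b measured 5.01, 5.03, 5.06 and 4.99 in Control and 5.09, 5.14, 4.82 and 4.70 in Siglec-XII, and differed by −0.08 (−0.35 to 0.18). In both genes Siglec-XII samples 1 and 2 were at or above the highest control and samples 3 and 4 below the lowest, so the direction turned to 0.20 and 0.09 without samples 3 and 4.

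ER-associated degradation pulls misfolded proteins back to the cytosol. Of the 8 genes tested, 3 had a difference above 0 as deposited, against 21.9% of all genes, and 0 passed the unadjusted limit, against 1.19% higher. After median centring 8 of 8 were above 0, against 61.5% of all genes, and 3 (Derl1, Edem2 and Herpud1) passed the limit, against 8.64%. Derl2, a channel component, measured 5.25, 5.39, 5.23 and 5.23 in Control and 5.27, 5.38, 5.41 and 5.53 in Siglec-XII, a difference of 0.12 (−0.09 to 0.33). Control sample 2 lay within the Siglec-XII range, and the other controls below it. Herpud1, an organiser of the ligase complex, differed by 0.09 (−0.14 to 0.31) and Edem2, a mannosidase that marks glycoproteins for disposal, by 0.02 (−0.20 to 0.23).

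The other mannosidases Edem3 and Edem1 differed by −0.07 (−0.60 to 0.46) and −0.09 (−0.37 to 0.20). The ligase Syvn1 differed by −0.04 (−0.56 to 0.47), its adaptor Sel1l by −0.10 (−0.64 to 0.44) and the channel component Derl1 by −0.01 (−0.22 to 0.21). Derl3, which is prominent in secretory cells, lay from 0.50 to 1.03 in Control and from 0.75 to 1.40 in Siglec-XII and was not tested. Edem1 lies 4.21 Mb from ROSA26 on chromosome 6, and Eif2ak3 and Pdia4 lie 42.2 and 65.3 Mb from it; whether this position contributed was not tested.

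Sec61b, a subunit of the channel through which proteins enter the ER, measured 8.46, 8.43, 8.40 and 8.47 in Control and 8.55, 8.50, 8.76 and 8.66 in Siglec-XII. The groups did not overlap, and here samples 3 and 4 were the highest. The difference was 0.18 (SE 0.0805; 95% confidence interval −0.01 to 0.36; limma adjusted P = 0.515), and it was 0.08 without samples 3 and 4. Of its 31-base windows, 23.5% also occur in other genes, 21.1% in Gm10320, so its level is uncertain. Ssr1, of the translocon-associated complex, differed by −0.05 (−0.35 to 0.25). After median centring Sec61b passed the unadjusted limit at 0.39, with groups that overlapped, and Ssr1 did not at 0.16. Of all genes, 8.64% were higher at that limit.

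**Figure D3:**
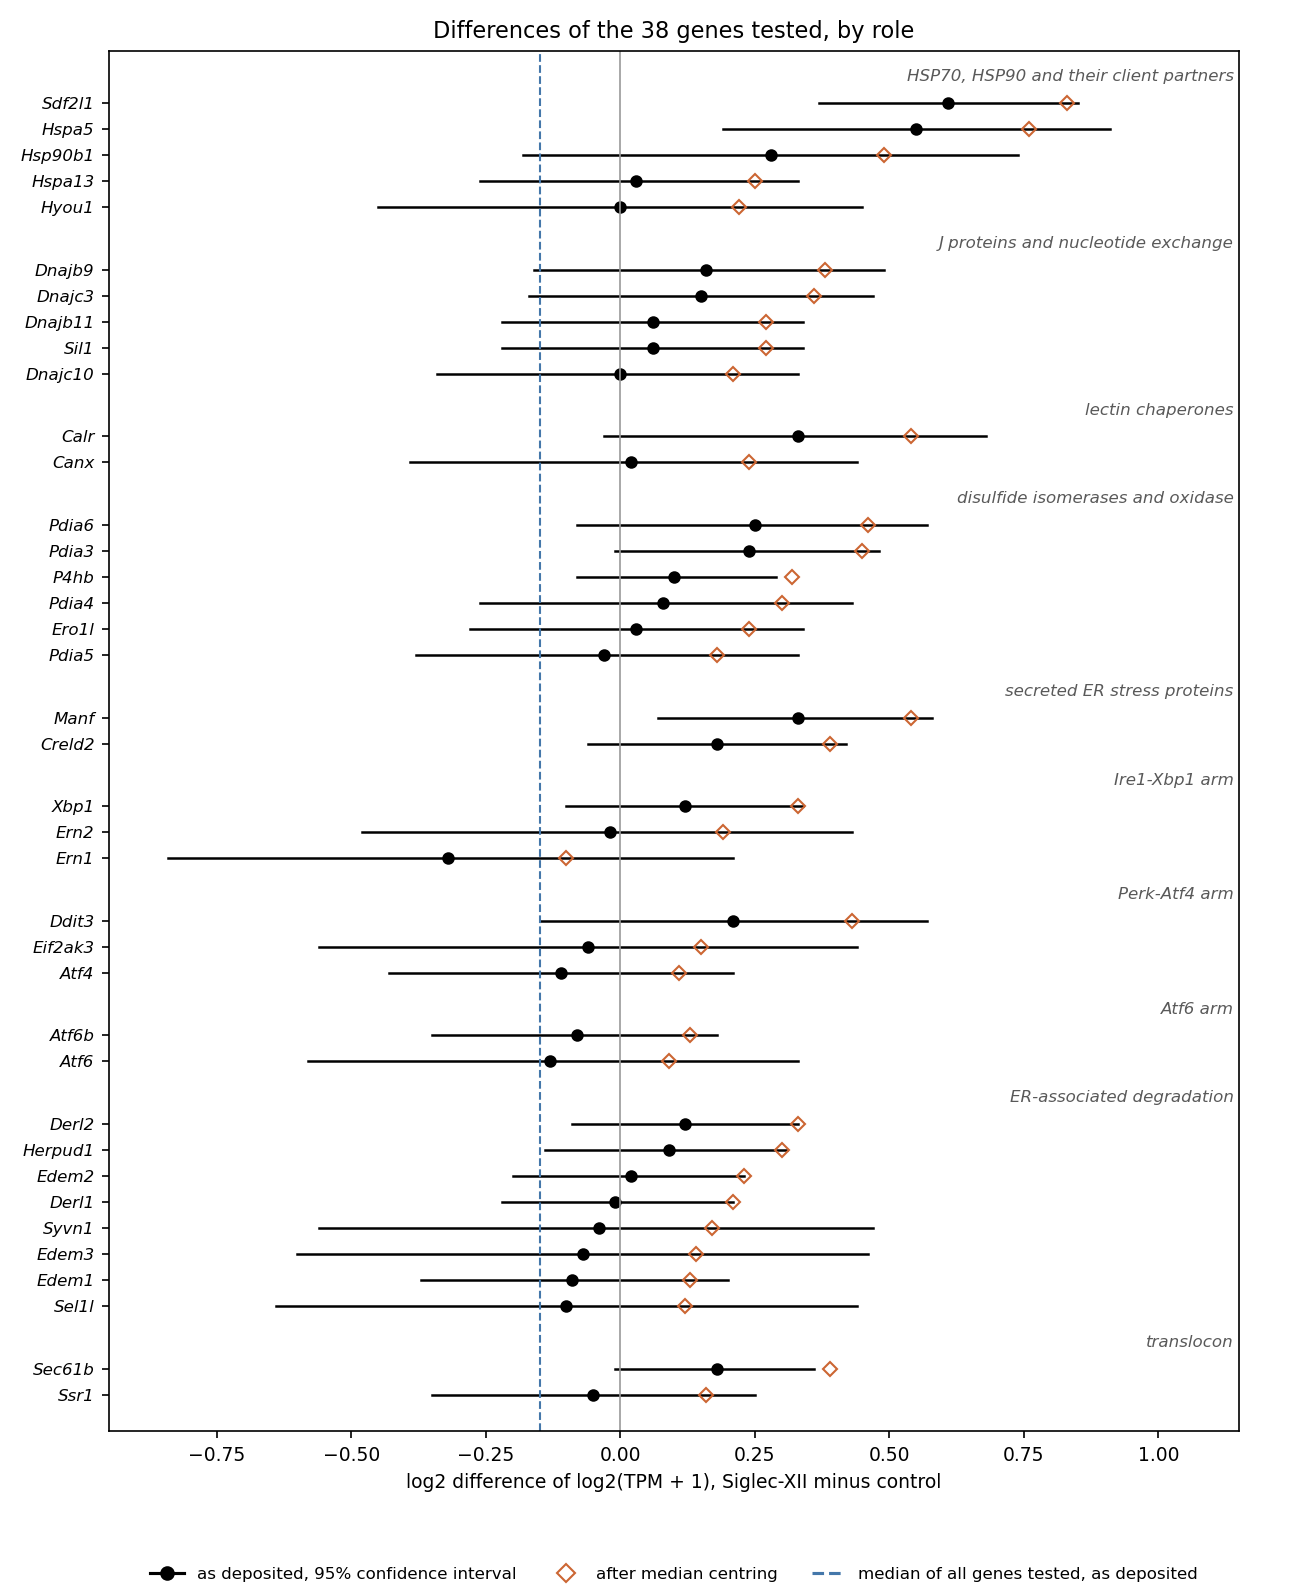
Log2 difference of log2(TPM + 1), Siglec-XII minus Control (horizontal axis), for each of the 38 genes grouped by role; black points with 95% confidence intervals are the deposited values, orange diamonds the values after median centring, and the dashed line the median of all genes tested (−0.15). The intervals of Hspa5 and Manf lie above 0, and Ern1 is the lowest at −0.32. That of Sdf2l1 also lies above 0, but this gene was known to be higher beforehand, so its interval is a description only.

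The samples did not contribute equally. Siglec-XII sample 2 was the highest of the 8 in 22 of the 38 genes, and Siglec-XII sample 4 was the lowest in 20. The summed TPM of the 41 genes was 3010, 3200, 3190 and 2990 in Control samples 1 to 4 and 3700, 4070, 3480 and 3000 in Siglec-XII samples 1 to 4. Sample 4 lay within the Control range and the other 3 Siglec-XII samples above it. The median SD was 0.147 in Control and 0.21 in Siglec-XII, and the largest was that of Syvn1 in Siglec-XII (0.463).

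Without Siglec-XII samples 3 and 4, 37 of the 38 genes had a difference above 0, against 50.9% of all genes, with a median of 0.21 against 0.00. At the unadjusted limit 12 were higher, against 1.18% of all genes, and 23 did not overlap, against 6.24%. Without Sdf2l1 these counts were 11 and 22 of 37. None passed the adjusted limit. Without sample 4 alone, 8 passed the unadjusted limit (Sdf2l1, Hspa5, Manf, Calr, Hsp90b1, P4hb, Pdia3 and Pdia6), against 1.09% of all genes, and the median of the 38 was 0.13; without sample 2 it was −0.02. In samples 1 and 2 Hspa5 differed by 0.78, Hsp90b1 by 0.60, Calr by 0.55 and Atf4 by −0.18 from the 4 controls.

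**Figure D4:**
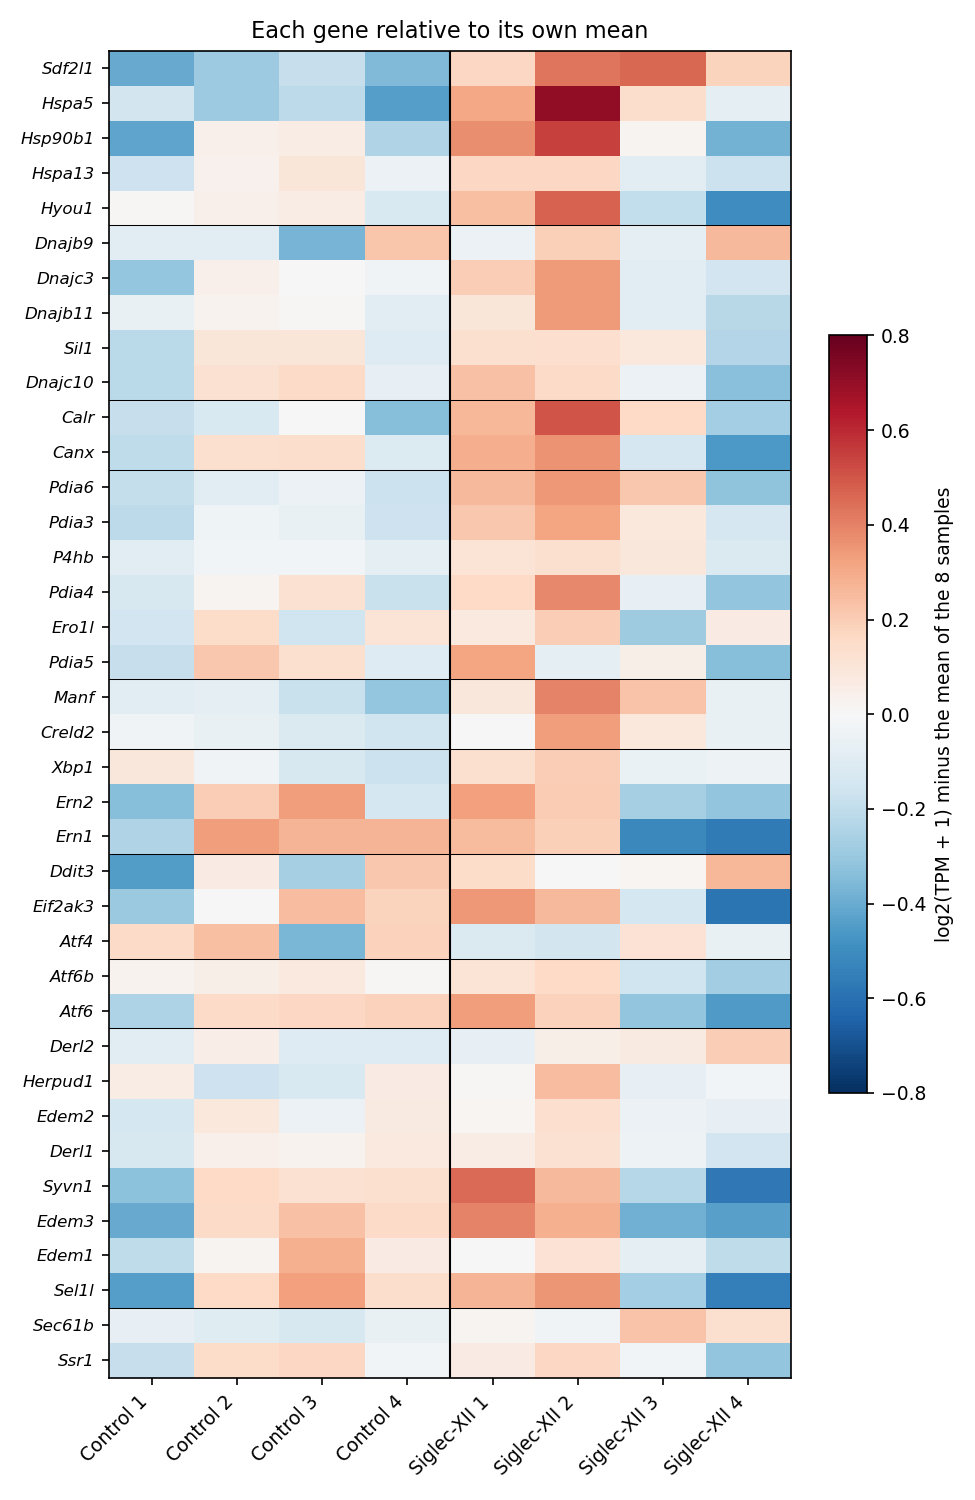
Each of the 38 genes (rows, in order of role) in each sample (columns), as log2(TPM + 1) minus the mean of the 8 samples; red is higher and blue lower, and the vertical line separates Control from Siglec-XII. Siglec-XII samples 1 and 2 are red in most rows and Siglec-XII sample 4 blue, whereas Sdf2l1 is red in each Siglec-XII sample.

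The genes also differ in abundance per unit of length. Calr was the most abundant in both groups (mean TPM 381 in Control and 485 in Siglec-XII), followed in Control by Sec61b (347), P4hb (323) and Pdia3 (268). Hspa5 had a mean TPM of 197 and 293, and Sdf2l1 of 34.2 and 53.0. The sensors were low, at 8.39 and 6.73 for Ern1, 11.5 and 11.2 for Eif2ak3 and 11.2 and 10.4 for Atf6.

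Grouped by promoter, the 10 tested genes with an ERSE or ERSE-II had a median difference of 0.16, with 9 above 0, and the 21 tested genes with neither had a median of 0.02, with 11 above 0. Sdf2l1 is in the second group, which spanned −0.32 to 0.61, and the first spanned −0.04 to 0.55. The 7 genes without a searched promoter, Manf among them, are in neither group. Of all genes tested, 21.9% were above 0, with a median of −0.15. At the unadjusted limit 1 gene was higher in each group (Hspa5 and Sdf2l1), against 1.19% of all genes. After median centring the medians were 0.38 and 0.23, against 0.06 over all genes.

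The wider pathway was examined in 142 further genes, of which 135 were tested. None passed the adjusted limit; at the unadjusted limit 3 were higher, against 1.19% of all genes, and 2 lower, against 7.67%, and 42 had a difference above 0, against 21.9%. Their median was −0.09, against −0.15 over all genes and 0.05 over the 38. After median centring 35 were higher at the unadjusted limit, against 8.64% of all genes, and 1 lower, against 2.16%, with a median of 0.12 against 0.06 over all genes.

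Of 34 other folding factors and 29 subunits of the translocation and signal peptidase machinery, 0 passed the unadjusted limit, with medians of −0.06 and −0.04. Of all genes, 1.19% were higher and 7.67% lower at it. After median centring 8 of the 34 and 11 of the 29 were higher at that limit, against 8.64% of all genes. Of 30 other degradation factors, 1 passed as deposited, Selenos, a selenoprotein of the retrotranslocation complex, at 0.23 (SE 0.0841). After median centring 12 of the 30 were higher at the limit. Of 42 stress regulators and integrated stress response genes, whose median was −0.21, 4 passed as deposited. Stc2, a secreted glycoprotein induced by Perk and Atf4, was higher by 0.48 (SE 0.159) and Bbc3, which encodes the death factor Puma, by 0.47 (SE 0.159). The serine-glycine enzyme Shmt2 differed by −0.71 (SE 0.199) and the stress-induced Sesn2 by −0.59 (SE 0.258), with Siglec-XII samples 3 and 4 lowest in both. All 5 of these genes had a limma adjusted P of 0.515. After median centring 4 of the 42 were higher and 1 lower, against 8.64% and 2.16% of all genes, with a median of 0.00.

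Markers of the cell types in the tissue moved with the groups in part. Goblet cells are rich in ER chaperones, and their markers had a median difference of 0.00 over 9 genes, 5 above 0 and 4 below. Their summed TPM was 9820 to 11800 in Control and 11300 to 15600 in Siglec-XII, with Zg16 and Tff3 highest in Siglec-XII samples 3 and 4. Spink4 passed the unadjusted limit at 0.43, while Ang4 differed by −0.98, Spdef by −0.29 and Muc2 by −0.18. The goblet median was 0.22 after median centring. Without samples 3 and 4 it was −0.06, with 6 of 9 below 0. The 8 epithelial markers had a median of −0.10 and none passed, as did none of 7 markers of absorptive colonocytes (median 0.02) and 5 of enteroendocrine cells (median −0.32). At that limit 1.19% of all genes were higher and 7.67% lower. After median centring these medians were 0.12, 0.24 and −0.11, and 2 absorptive markers were higher, against 8.64% of all genes. All 8 smooth muscle markers were below 0, with a median of −0.69 and 4 past the unadjusted limit (Des, Cnn1, Myh11 and Smtn). Of all genes, 21.9% were above 0. The summed TPM of these markers was 645 to 1030 in Control and 311 to 665 in Siglec-XII. After median centring all 8 stayed below 0, with a median of −0.47 and 4 past the limit, against 2.16% of all genes lower.

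Plasma cells are also rich in ER chaperones. Of 9 plasma and B cell markers found, 3 were tested, all below 0, and Igha passed the unadjusted limit at −2.19; the sum of the list was 3.11 to 49.6 TPM in Control and 1.80 to 4.22 in Siglec-XII, with the defining markers Mzb1 and Tnfrsf17 under 1 TPM in every sample. Of 4 endothelial markers, Pecam1 passed at −0.59, and the list summed to 4.09 to 5.09 TPM in Control and 1.94 to 3.44 in Siglec-XII. As deposited 7.67% of all genes were lower at that limit. After median centring Igha (−1.97) and Pecam1 (−0.38) still passed, against 2.16% of all genes lower. None of the 5 fibroblast or 3 adipocyte markers tested passed, and no leukocyte or neuron and glia marker was high enough to test. The leukocyte list summed to 2.68 to 7.02 TPM in Control and 1.74 to 2.42 in Siglec-XII, and the neuron and glia list to 1.49 to 1.76 and 1.04 to 1.39, without overlap in either. These are sums, as deposited, of genes too low to test, and each neuron and glia gene stayed under 1 TPM. Itgam, of the leukocyte list, measured 2.14, 1.82, 0.44 and 2.45 in Control samples 1 to 4. Whether the makeup of the tissue differed, or contributed to the differences of the ER genes, was not tested. In whole tissue, fewer cells of a type and less RNA per cell cannot be told apart.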

How the data were processed

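The authors quantified the reads of 8 distal colon samples with kallisto and deposited 1 value per Ensembl gene and sample, log2(TPM + 1), without further adjustment between samples; replicates were not pooled. The submitters' processing notes name kallisto 0.45.0 and GRCm38. The Methods name another kallisto version, a human reference, gene counts that were not used here, and an mRNA kit where the labels name a total RNA kit with paired reads of 100 bases. TPM values keep no record of depth, so no counting error could be given, and precision was limited by the number of samples.

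Genes that reached a TPM of 1 in 4 or more of the 8 samples were tested with limma 3.58.1 (lmFit, eBayes with trend) in R 4.3.3, two-sided, with Benjamini-Hochberg adjustment and limits of 0.05. This model was tested on simulated data. Where a symbol had several rows (Ddit3), the one with the highest mean was used. Positions are from GENCODE M21 (GRCm38), which holds 98.3% of the deposited identifiers, and promoters from RefSeq. Shared sequence was counted in windows of 31 bases over all annotated transcripts.

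Alternatives were no filter, a TPM filter of 5, a pseudocount of 0.1, quantile normalization, median centring, array weights, the replicate number as a block, no trend, and samples left out singly or as Siglec-XII 3 and 4 together. The numbers 1 to 4 were not taken to pair samples. All 41 genes are accounted for; values in each sample are given for Sdf2l1, Hspa5, the sensors and factors of the 3 arms, genes past the unadjusted limit, and the gene with the largest difference in each role. Other pathway genes are named where they passed that limit, up to 3 per list and direction. The genes, lists and tests were chosen with earlier results of these data known.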

Additional observations from a re-analysis of the deposited data

Results flagged for a closer look

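In 8 of 82 groups of 4 samples (41 genes in 2 groups), 1 sample lay so far from the others that its gap to the nearest, divided by the range of the group, passed Dixon's 95% critical value; chance alone would give about 4.1. Control sample 1 was the low one in 4 genes: Atf6 at 3.29 against 3.69 to 3.72 (ratio 0.93), Syvn1 at 3.84 against 4.29 to 4.33 (0.92), Ern1 at 2.82 against 3.33 to 3.39 (0.891) and Edem3 at 3.20 against 3.76 to 3.84 (0.862). In Control, Atf4 was low in sample 3 at 6.26 against 6.78 to 6.87 (0.852), and Derl2 was high in sample 2 at 5.39 against 5.23 to 5.25 (0.848). In Siglec-XII, Chac1 was high in sample 2 at 1.58 against 0.69 to 0.78 (0.902), and Sil1 was low in sample 4 at 4.85 against 5.17 to 5.22 (0.865). None of the 8 concerned Sdf2l1, Hspa5 or Manf.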

How the results depend on the processing

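Sdf2l1, Hspa5, Hsp90b1, Calr, Manf, Pdia3, Pdia6, P4hb, Creld2, Xbp1, Dnajb9, Dnajc3, Ddit3, Herpud1, Derl2 and Sec61b had a difference above 0 in all 17 alternatives. Counts depended on the scaling and on Siglec-XII samples 3 and 4. The 3 ER genes past the unadjusted limit became 12 under quantile normalization, 21 under median centring, 16 under array weights and 12 without samples 3 and 4; with 1 sample left out they were 2 to 8 (8 without Siglec-XII sample 4), all higher except for 1 lower, Atf4 without Control sample 3. Of all 13164 genes, in either direction, 1112 passed it under quantile normalization, 1422 under median centring, 1851 under array weights and 362 without samples 3 and 4. The 4 ER genes that did not overlap became 8, 14, 4 and 23 in that order (4 to 9 with 1 sample left out). All were higher except Ern1 without Control sample 1 and Atf4 without Control sample 3. Of all genes, 5.74% did not overlap and were higher after median centring, and 6.24% without samples 3 and 4. The median difference of the ER genes, 0.05, became 0.18, 0.26, 0.13 and 0.21. The 0 past the adjusted limit became 2 with array weights, Hspa5 and Sdf2l1, of which Sdf2l1 counts as a description only. Over all genes, 5 passed the adjusted limit, with 3 under no filter, 3 under a filter of 5, 18 with array weights, 2 without samples 3 and 4 and 2 to 6 with 1 sample left out. At the unadjusted limit the 1167 became 2043, 699, 1851 and 362 in the same order, and 483 to 2365. The 5 further pathway genes at that limit became 12 without a filter, 16 under quantile normalization, 36 under median centring, 9 under array weights, 3 without samples 3 and 4 and 4 to 15 with 1 sample left out. The cause of these changes was not tested.

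Some differences changed direction between alternatives. With quantile normalization, they became 0.09 (Atf6), 0.07 (Atf6b), 0.11 (Derl1), 0.16 (Dnajc10), 0.05 (Edem1), 0.15 (Edem3, Eif2ak3 and Syvn1), 0.16 (Ern2), 0.11 (Pdia5), 0.08 (Sel1l) and 0.09 (Ssr1). With median centring, they became 0.11 (Atf4), 0.09 (Atf6), 0.13 (Atf6b and Edem1), 0.21 (Derl1 and Dnajc10), 0.14 (Edem3), 0.15 (Eif2ak3), 0.19 (Ern2), 0.18 (Pdia5), 0.12 (Sel1l), 0.16 (Ssr1) and 0.17 (Syvn1). With array weights, they became 0.03 (Atf6), 0.09 (Atf6b), 0.06 (Derl1), 0.10 (Dnajc10), 0.12 (Edem3 and Ern2), 0.13 (Eif2ak3, Sel1l and Syvn1) and 0.07 (Ssr1). Without samples 3 and 4, they became 0.20 (Atf6), 0.09 (Atf6b, Derl1 and Ssr1), 0.19 (Dnajc10), 0.01 (Edem1), 0.31 (Edem3), 0.27 (Eif2ak3), 0.07 (Ern1), 0.26 (Ern2 and Sel1l), 0.11 (Pdia5) and 0.33 (Syvn1). With 1 sample left out, Atf6 ran from −0.26 to 0.00, Canx −0.09 to 0.18, Derl1 −0.05 to 0.04, Dnajb11 −0.04 to 0.15, Dnajc10 −0.08 to 0.11, Edem2 −0.03 to 0.05, Edem3 −0.22 to 0.07, Eif2ak3 −0.18 to 0.12, Ern2 −0.14 to 0.08, Ero1l −0.03 to 0.13, Hspa13 −0.02 to 0.10, Hyou1 −0.15 to 0.17, Pdia4 −0.03 to 0.20, Pdia5 −0.14 to 0.08, Sel1l −0.26 to 0.07, Ssr1 −0.12 to 0.04 and Syvn1 −0.20 to 0.14.

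With the sample number as a replicate block, 4 ER genes passed the unadjusted limit (Sdf2l1, Hspa5, Manf and Calr) and 0 the adjusted one, and 4 of all genes passed the adjusted limit. The numbers are not known to pair the samples, and deviations of same-numbered samples correlated at −0.165, −0.204, 0.103 and −0.00249.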
